A study of Mus musculus with 6 samples.

Results

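The 7 genes described here are Ifi44, Ifi44l, Rtp4, Apol9a, Apol9b, Cmpk2 and Rsad2, taken by name from a table of 54532 mouse genes, and all 7 were among the 12491 genes that passed the filter on low counts. They were chosen as the strongest risers in an earlier look at these same libraries, so their difference between the groups is given below as a description, without a test. RNA was sequenced from 3 libraries labelled ERMAP shRNA and 3 libraries labelled RAW. RAW264.7 is a mouse macrophage-like line transformed by Abelson murine leukemia virus. The ERMAP shRNA libraries carry the genotype label ERMAP knockdown and the treatment label shRNA, and the RAW libraries carry the genotype label WT with no treatment label. The treatment text of all 6 samples names an ERMAP shRNA lentivirus, no control virus or non-targeting shRNA is described, and the labels name neither a clone nor a pool of transduced cells. A viral effect and an effect of the shRNA therefore cannot be told apart. Nothing in the labels says that the 3 libraries of a group came from separate cultures, so each p-value reflects variation among libraries that could be purely technical.

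All 7 genes are known targets of type I interferon. Interferon binds a receptor on the cell surface, the kinases Jak1 and Tyk2 are activated, and a complex that holds Stat2 and Irf9 (ISGF3) forms and binds a DNA element called the interferon-stimulated response element, or ISRE, in the promoters of its targets. Another element, GAS, is bound after interferon gamma. Macrophages use this pathway to limit the growth of viruses. Rsad2 encodes viperin, a radical-SAM enzyme that turns CTP into a chain-terminating analog. Cmpk2 encodes a mitochondrial nucleotide kinase, which in humans supplies the CTP that viperin uses. Ifi44 and Ifi44l encode related GTP-binding proteins without a settled role, Rtp4 a zinc-finger protein that helps some receptors reach the cell surface and restrains flaviviruses, and Apol9a and Apol9b are members of the apolipoprotein L family of lipid-binding proteins.

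The promoter windows are shown first because these genes sit at 4 separate places in the genome and moved together. RefSeq windows on GRCm38.p6, each running from 250 bases before to 50 bases after an annotated start, were found for 6 of the 7 genes, Rtp4 being the other. Sequences are written 5′ to 3′ on the strand of the gene, and capitals mark each pair of GAAA words, or its reverse complement, with 1 to 3 bases between them. The core of the ISRE searched here is GAAA, any 2 bases, then GAAA, on both strands.
Apol9a, chr15:77411031-77411330, minus strand: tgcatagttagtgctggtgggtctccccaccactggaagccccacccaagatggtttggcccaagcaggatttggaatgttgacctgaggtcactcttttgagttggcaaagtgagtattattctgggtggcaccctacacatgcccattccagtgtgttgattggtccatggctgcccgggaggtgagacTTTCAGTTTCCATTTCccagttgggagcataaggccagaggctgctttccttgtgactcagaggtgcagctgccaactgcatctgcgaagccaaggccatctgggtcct
Rsad2, chr12:26456403-26456702, minus strand: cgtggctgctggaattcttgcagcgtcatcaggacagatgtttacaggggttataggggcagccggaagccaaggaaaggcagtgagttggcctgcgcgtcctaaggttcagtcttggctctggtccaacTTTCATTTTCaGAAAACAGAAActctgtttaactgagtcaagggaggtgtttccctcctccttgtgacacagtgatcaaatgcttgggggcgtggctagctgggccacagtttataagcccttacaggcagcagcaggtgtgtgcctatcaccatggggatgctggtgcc
Ifi44, chr3:151749861-151750160, minus strand: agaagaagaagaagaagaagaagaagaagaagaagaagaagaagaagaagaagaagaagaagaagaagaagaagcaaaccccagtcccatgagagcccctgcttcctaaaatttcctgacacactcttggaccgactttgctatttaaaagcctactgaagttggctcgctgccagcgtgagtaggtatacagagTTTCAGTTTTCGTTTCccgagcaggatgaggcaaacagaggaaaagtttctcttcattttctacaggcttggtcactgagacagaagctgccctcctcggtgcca
Apol9b, chr15:77729020-77729065, plus strand, 46 bases of its window: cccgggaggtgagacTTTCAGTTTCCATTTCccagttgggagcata

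The windows of Apol9a and Apol9b each held 2 ISRE cores, which overlap in the shared stretch shown. Seen from the start site of the printed Apol9a window they begin at -59 and -53. RefSeq gives each of the pair a second start, and the windows of the best-matching starts shared an identical run of 281 bases. The Rsad2 window held 1 ISRE core at -120, followed on the other strand by GAAA words 3 bases apart. In the Ifi44 window the GAAA words stood 3 bases and 1 base apart, which the strict core does not match. The wider pattern, which allows 1, 2 or 3 bases between the GAAA words and so includes the core, was added after that sequence had been seen. The windows of Cmpk2 and Ifi44l held neither form, which says only that these letters are not in these windows. No window of the 6 genes held the GAS core, TTCNNNGAA. Of all 32851 promoter windows in the table, 3.44% held the ISRE core, 8.61% the wider pattern and 8.3% the GAS core. Counted by gene, 3 of the 6 members held the ISRE core, against 3.99% of 27025 gene symbols. Apol9a and Apol9b, with their shared run, are counted there as separate genes. Among the interferon-stimulated genes listed further on, 20 of 36 with a window (55.6%) held the core. So did 10 of 32 genes of interferon signalling (31.2%) and 7 of 19 relatives of the members (36.8%). In those lists, also given further on, 4 of 22 and 0 of 9 tested genes were called higher, against 1.01% of all tested genes. Of the 7 relatives with the core, 6 are apolipoprotein L genes that did not pass the filter on low counts and could not be called. A match is a description of letters and not a mapped binding site.

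Counts of the 7 genes were high in the ERMAP shRNA libraries and low in the RAW libraries, from 66 to 2945 counts per library in ERMAP shRNA and from 0 to 74 in RAW. Levels below are in CPM, counts divided by the library's summed count on a common scale. Summed over the 7, they took 396.0, 428.0 and 417.9 CPM (before scaling) in ERMAP shRNA replicates 1 to 3, against 7.46, 5.54 and 8.41 in RAW replicates 1 to 3. For each of the 7 genes every ERMAP shRNA library stood above every RAW library. The same held for 7.74% of all tested genes, and the opposite, every ERMAP shRNA library below every RAW library, for 6.47%. Since these genes were chosen on this contrast, nothing is read from the count. The CPM of single genes are scaled by TMM, a correction for library composition. Each fold change is a log2 value of ERMAP shRNA over RAW from the edgeR model, with its standard error (SE). That SE is derived from the test statistic of edgeR and can fall below counting error where RAW counts are few. For Ifi44l, Apol9a and Rsad2 DESeq2 gave an SE of 0.48, 0.51 and 0.66, against 0.27, 0.33 and 0.48 by edgeR. An interval for a ratio of summed counts is an exact 95% interval that covers counting error only.

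**Figure D1:**
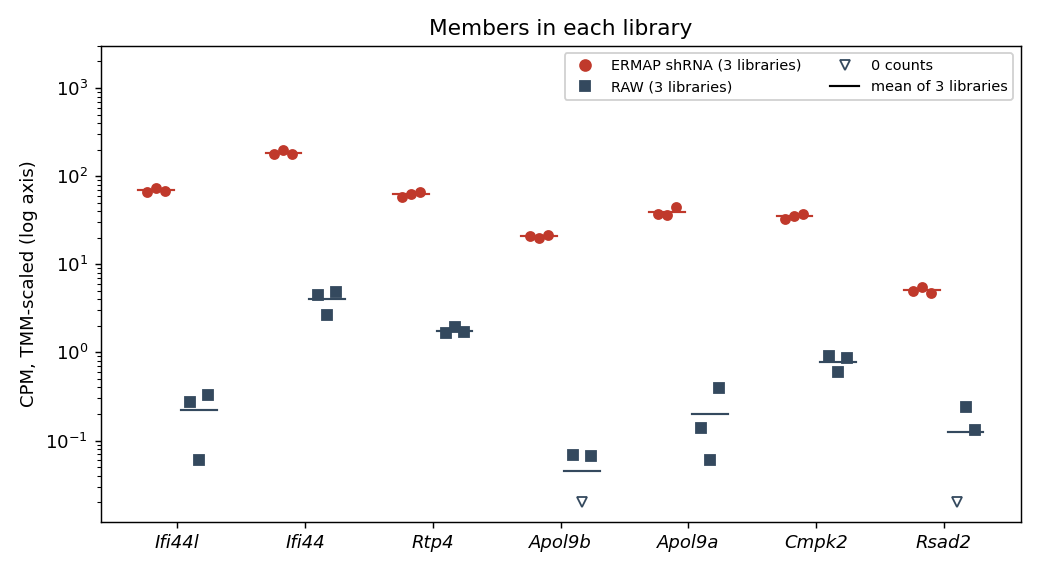
TMM-scaled CPM (log axis) of the 7 members in each of the 3 ERMAP shRNA and 3 RAW libraries, with a line at each group's mean and an open triangle for a library with 0 counts. The lowest ERMAP shRNA library of Rsad2, at 4.72 CPM, lies 19.6 times above its highest RAW library, and for Apol9b that distance is 290-fold.

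Ifi44 and Ifi44l lie next to each other on the minus strand of chromosome 3. Ifi44 (ENSMUSG00000028037) runs from 151730922 to 151749960 in mm10 with up to 8 exons, and Ifi44l (ENSMUSG00000039146) from 151758737 to 151762892 with 3 exons. They are 8.78 kb apart with no annotated gene between. Ifi44 had 177.4, 196.0 and 178.8 CPM in the ERMAP shRNA libraries, against 4.43, 2.65 and 4.89 CPM in the RAW libraries. The groups lie far apart, with a log2 fold change of 5.53 (SE 0.21). Ifi44l had 66.9, 72.5 and 68.3 CPM in the ERMAP shRNA libraries, against 0.277, 0.0602 and 0.330 CPM in the RAW libraries. Its RAW values rest on 4, 1 and 5 counts, and its log2 fold change was 8.26 (SE 0.27). Leaving out RAW replicate 2, the lowest of them, gave 7.79, and leaving out RAW replicate 3 gave 8.67.

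The balance within this pair differed between the groups. Per gene length, Ifi44l stood above Ifi44 in the ERMAP shRNA libraries, with FPKM ratios of Ifi44l to Ifi44 of 1.68, 1.65 and 1.70. In the RAW libraries Ifi44 stood above Ifi44l, with ratios of 0.278, 0.101 and 0.301. The ERMAP shRNA ratios spread by an SD of 0.0270 and the groups did not overlap. This restates the 2 fold changes in another form, so it is not separate evidence. Gene sequence does not mix the pair, since no stretch of 100 bases in the transcripts of either occurs in any other GENCODE vM21 gene.

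Cmpk2 and Rsad2 are also neighbours, on chromosome 12, and point away from each other. Rsad2 (ENSMUSG00000020641) lies on the minus strand from 26442746 to 26456452 with up to 7 exons, and Cmpk2 (ENSMUSG00000020638) on the plus strand from 26469204 to 26479837 with up to 5 exons. The 12.8 kb between them hold no annotated gene. Cmpk2 had 32.6, 35.5 and 37.0 CPM in the ERMAP shRNA libraries, against 0.899, 0.602 and 0.858 CPM in the RAW libraries, a log2 fold change of 5.47 (SE 0.18). Rsad2 had 4.93, 5.46 and 4.72 CPM in the ERMAP shRNA libraries, against 0, 0.241 and 0.132 CPM in the RAW libraries. Its log2 fold change was 5.20 (SE 0.48) and the groups did not overlap.

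The log2 fold changes of this divergent pair differed by less than the SE of Rsad2, while their levels did not match. Per gene length Cmpk2 stood above Rsad2 by ratios of 6.88, 6.77 and 8.15 in the ERMAP shRNA libraries, against 2.60 and 6.77 in RAW replicates 2 and 3. RAW replicate 1 had 0 Rsad2 counts and gives no ratio. Rsad2 rests on 0, 4 and 2 RAW counts. The ratio of its summed counts was 38.8 (95% interval 17.6 to 107.0), against 45.1 (32.4 to 64.6) for Cmpk2, so those intervals overlap. RAW replicate 2 holds 4 of the 6 RAW counts of Rsad2. Without it the ratio of Rsad2 was 74.6 (20.4 to 620.1), and without RAW replicate 1 it was 26.7 (12.1 to 73.5).

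Apol9a and Apol9b lie 317.9 kb apart on chromosome 15, within a row of apolipoprotein L genes. Apol9a (ENSMUSG00000057346) is on the minus strand from 77403789 to 77411135, and Apol9b (ENSMUSG00000068246) on the plus strand from 77729039 to 77736382. Apol9a had 494, 541 and 674 counts in the ERMAP shRNA libraries, against 2, 1 and 6 counts in the RAW libraries. That is 36.9, 36.0 and 44.8 CPM in ERMAP shRNA, against 0.138, 0.0602 and 0.396 CPM in RAW, a log2 fold change of 7.59 (SE 0.33). RAW replicate 3 holds 6 of its 9 RAW counts. Without it 3 are left, and the ratio of summed counts was 407 (95% interval 139 to 1978). Apol9b had 280, 301 and 319 counts in the ERMAP shRNA libraries, against 1, 0 and 1 counts in the RAW libraries. Its ratio of summed counts, scaled by library size, was 479 with a 95% interval of 132 to 3959, too wide to set Apol9b above Apol9a, whose ratio was 202 (106 to 443). Without RAW replicate 2, the library with 0 counts, the ratio of Apol9b was 307 (84.7 to 2536).

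These 2 genes are copies, and their reads can be confused. Of the 100-base stretches in Apol9b transcripts, 36.7% also occur in Apol9a transcripts, and of those in Apol9a transcripts 11.7% occur in Apol9b. No other gene shared such a stretch with either. How reads that fit both were counted is not given in the sources used here, so their sum is the firmer value. Together they had 57.8, 56.0 and 66.1 CPM in the ERMAP shRNA libraries, against 0.207, 0.0602 and 0.462 CPM in the RAW libraries. Which copy ranks higher depends on the unit. Apol9a had more counts in every ERMAP shRNA library, yet per gene length Apol9b stood above Apol9a by FPKM ratios of 1.85, 1.82 and 1.55, because the gene length used for FPKM is 5953 bases for Apol9a and 1821 for Apol9b.

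Rtp4 (ENSMUSG00000033355) stands alone on chromosome 16, on the plus strand from 23520291 to 23614222. It had 58.3, 62.4 and 65.5 CPM in the ERMAP shRNA libraries, against 1.66, 1.93 and 1.72 CPM in the RAW libraries. Its log2 fold change was 5.12 (SE 0.14), with 24, 32 and 26 RAW counts behind it. Leaving out any library kept it between 5.07 and 5.19. Masp1 overlaps its annotated span on the other strand and Gm45338 on the same strand, and both had 0 counts in all 6 libraries. Gm45338 holds 9.28% of the 100-base stretches of Rtp4.

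Per gene length, the order of the 7 genes was not the same in the 2 groups. In ERMAP shRNA libraries Ifi44l was highest with 48.2, 52.5 and 49.4 FPKM, followed by Ifi44 at 29.9 ± 1.73 FPKM (SD, n = 3) and Rtp4 at 28.9 ± 1.75 FPKM, which overlapped. Apol9b at 11.3 ± 0.331 FPKM, Cmpk2 at 8.36 ± 0.557 FPKM, Apol9a at 6.56 ± 0.821 FPKM and Rsad2 at 1.16 ± 0.0877 FPKM then followed without overlap between neighbours in the order. In RAW libraries Rtp4 at 0.822 ± 0.0668 FPKM and Ifi44 at 0.645 ± 0.191 FPKM overlapped at the top. Cmpk2 at 0.187 ± 0.0380 FPKM and Ifi44l at 0.160 ± 0.103 FPKM overlapped below them, and Apol9a, Rsad2 and Apol9b, all at most 0.0661 FPKM in every RAW library, overlapped at the bottom. Among 22046 protein-coding genes ranked by FPKM, Ifi44l took places 1018, 895 and 992 in the ERMAP shRNA libraries, against 10769, 11929 and 10700 in the RAW libraries. Rsad2 reached only places 9501, 9374 and 9513 in ERMAP shRNA, against 12346, 11759 and 12165 in RAW.

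**Figure D2:**
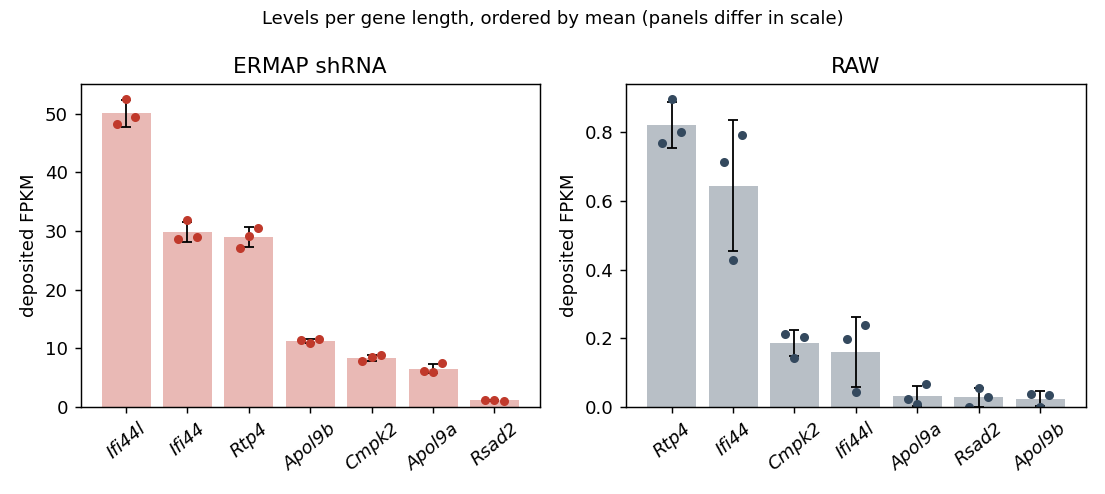
Deposited FPKM of the 7 members in the 3 ERMAP shRNA libraries (left) and the 3 RAW libraries (right), as group mean bars with SD and a point per library, each panel ordered by its own mean and on its own scale. Ifi44l is first in ERMAP shRNA at 48.2 to 52.5 FPKM, while Rtp4 is first in RAW at 0.822 FPKM.

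The ERMAP shRNA libraries were tight at these genes. The SD was 2.99% of the mean for Apol9b, 4.25% for Ifi44l, 5.63% for Ifi44, 5.82% for Rtp4, 6.41% for Cmpk2, 7.50% for Rsad2 and 12.4% for Apol9a (CPM, n = 3). In RAW it ran from 7.97% for Rtp4 to 97.0% for Rsad2, where there were 6 counts in all.

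Most genes around the members had 0 counts, and none of those tested was called. Within 500 kb of a member lay 119 other annotated genes, 43 of them protein-coding. Of the 119, 76 had 0 counts in all 6 libraries and 19 passed the filter. Over the whole table of 54532 genes, 17651 to 18426 had a count in each library, so genes at 0 were common everywhere. By edgeR 0 of the 19 were called higher or lower at an adjusted p under 0.05, and 0 had an unadjusted p under 0.05. DESeq2 and limma-voom also called 0. Among all tested genes edgeR called 1.01% higher and 0.136% lower, or 1.14% in either direction, so 0 calls in 19 genes is near the background and is not a result about these places. The fitted log2 fold changes of the 19 ran from -0.90 to 0.27 with a median of 0.05, against -0.01 over all tested genes.

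**Figure D3:**
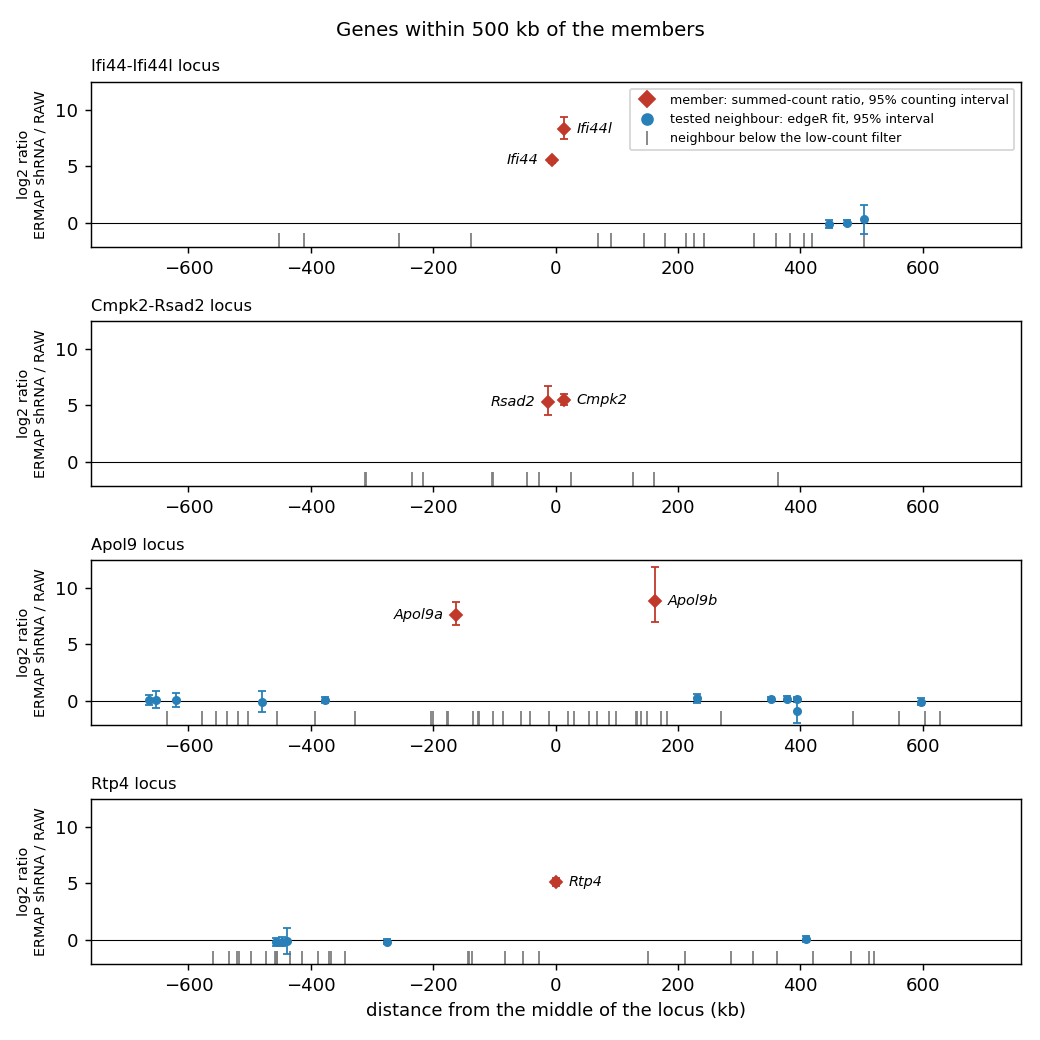
Log2 ratio of ERMAP shRNA over RAW against distance from the middle of each locus in kb, for the members (summed-count ratio with 95% counting interval), for tested genes within 500 kb (edgeR fit with 95% interval) and, as grey ticks at the bottom, for genes under the low-count filter. The members stand above 5 on this scale and all 19 tested neighbours lie between -0.90 and 0.27.

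The nearest tested gene to any member was Myh9, the heavy chain of nonmuscle myosin II, 24.2 kb beyond Apol9b. Myh9 had 697.8 ± 26.3 CPM in ERMAP shRNA libraries and 601.0 ± 150.2 CPM in RAW libraries (SD, n = 3), a log2 fold change of 0.22 (95% interval -0.20 to 0.63, edgeR adjusted p = 0.937). On the other side of the Apol9 pair, 96.8 kb away, Rbfox2, a splicing regulator, had 60.7 ± 1.54 CPM in ERMAP shRNA and 58.8 ± 4.48 CPM in RAW. St6gal1, a sialyltransferase 159.9 kb before Rtp4, had a log2 fold change of -0.21 (95% interval -0.42 to 0.01, edgeR adjusted p = 0.773). Bcl6, a transcriptional repressor 350.8 kb beyond Rtp4, had 45.9 ± 1.32 CPM in ERMAP shRNA and 44.4 ± 4.91 CPM in RAW. Dnajb4, a chaperone 415.6 kb beyond Ifi44l, had a log2 fold change of -0.13 (edgeR adjusted p = 0.938). On its other side the nearest tested gene was Gm6439, 1215 kb off, with a log2 fold change of -0.37 (edgeR adjusted p = 0.938).

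Cmpk2 and Rsad2 stood in the emptiest place. All 12 genes within 500 kb of the pair had at most 3 counts over the 6 libraries. The nearest tested genes were Id2, an inhibitor of helix-loop-helix factors, 1346 kb before the pair, and the ribosomal protein gene Rps7, 2151 kb beyond it. Id2 had a log2 fold change of 0.54 (SE 0.17, edgeR adjusted p = 0.409) and Rps7 of 0.04 (SE 0.11, edgeR adjusted p = 0.961).

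Between Apol9a and Apol9b lie 18 annotated genes, 16 of them with 0 counts and none tested. Of 11 other apolipoprotein L genes, 0 passed the filter, and Apol10b had the most counts, 6 in the ERMAP shRNA libraries and 4 in the RAW libraries. Of the 9 of these with a promoter window, 6 hold the ISRE core, and 4 of those 6 (Apol7c, Apol7e, Apol10a and Apol11a) had 0 counts in all libraries. Apol9a and Apol9b, which also hold the core, had high counts in ERMAP shRNA libraries. The other relatives that hold it, Apol10b and Apol11b, had 10 and 1 counts over all libraries. In RAW libraries Apol9a and Apol9b had 9 and 2 counts in all. Whether the core bears on any of these counts was not tested. Rtp1, Rtp2 and Rtp3, which traffic chemosensory receptors or are close relatives of those that do, had at most 2 counts over all libraries.

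Of 9 other nucleoside and nucleotide kinases, all tested, 0 were called by edgeR or DESeq2, while at an unadjusted p under 0.05 there was 1 on each side (Ak4 higher, Dguok lower). With 1.14% of all tested genes called in either direction, 0 of 9 is near the background and is not a result about these kinases. Cmpk1, the cytosolic UMP-CMP kinase, had 178.5 ± 11.4 CPM in ERMAP shRNA libraries and 192.6 ± 45.8 CPM in RAW libraries (SD, n = 3, edgeR adjusted p = 0.949). Tk2, the mitochondrial thymidine kinase, had 14.9 ± 2.05 CPM in ERMAP shRNA and 17.2 ± 2.30 CPM in RAW, and Dguok, the mitochondrial deoxyguanosine kinase, 12.6 ± 0.162 CPM in ERMAP shRNA and 15.8 ± 1.13 CPM in RAW. The largest log2 fold changes among these kinases were 0.39 for Dck and -0.32 for Dguok. Dtymk, Tk1, Ak3 and Ak4 lay between -0.20 and 0.21. Without RAW replicate 1, edgeR called Dck (0.61, adjusted p = 2.05e-06) and Ak4 (0.24, adjusted p = 0.0250) higher.

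Other genes of the interferon pathway were also higher. Of 46 further interferon-stimulated genes 42 were tested. Of the 42, 36 rose, 0 fell and 6 did not pass (edgeR, adjusted p under 0.05), against 1.01% higher and 0.136% lower among all tested genes. Some of the 42, Mx1 among them, passed the low-count filter only through the ERMAP shRNA libraries and could not have been called lower. The median log2 fold change of the 42 was 2.36, against -0.01 over all tested genes. It was the same with Mx1, which had 0 RAW counts, put at its bound (at least 18.8-fold higher, against 3 counts over the RAW group). The 6 that did not pass were Samhd1, Ifi27, Pnpt1, Tdrd7, Ifi47 and Herc6, of which all had a positive fitted value. The list was written with earlier results of these libraries known. The 6 called genes with the highest CPM in ERMAP shRNA included Ifitm3, which blocks viral entry, with 466.2 ± 8.83 CPM in ERMAP shRNA and 193.2 ± 13.1 CPM in RAW. Oas3, which makes the activator of RNase L, had 283.2 ± 7.81 CPM in ERMAP shRNA and 51.5 ± 2.75 CPM in RAW, and its relative Oas2 had 137.0 ± 3.91 CPM in ERMAP shRNA and 13.8 ± 1.30 CPM in RAW. Lgals3bp, a secreted galectin ligand, had 257.7 ± 8.51 CPM in ERMAP shRNA and 56.3 ± 6.24 CPM in RAW. Bst2 (tetherin), which holds budding virus at the cell surface, had 188.6 ± 2.98 CPM in ERMAP shRNA and 51.6 ± 13.3 CPM in RAW, and Helz2, a helicase, 154.9 ± 12.7 CPM in ERMAP shRNA and 42.3 ± 8.40 CPM in RAW. The edgeR adjusted p of these 6 ran from 4.99e-06 for Oas2 to 0.00179 for Bst2.

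**Figure D4:**
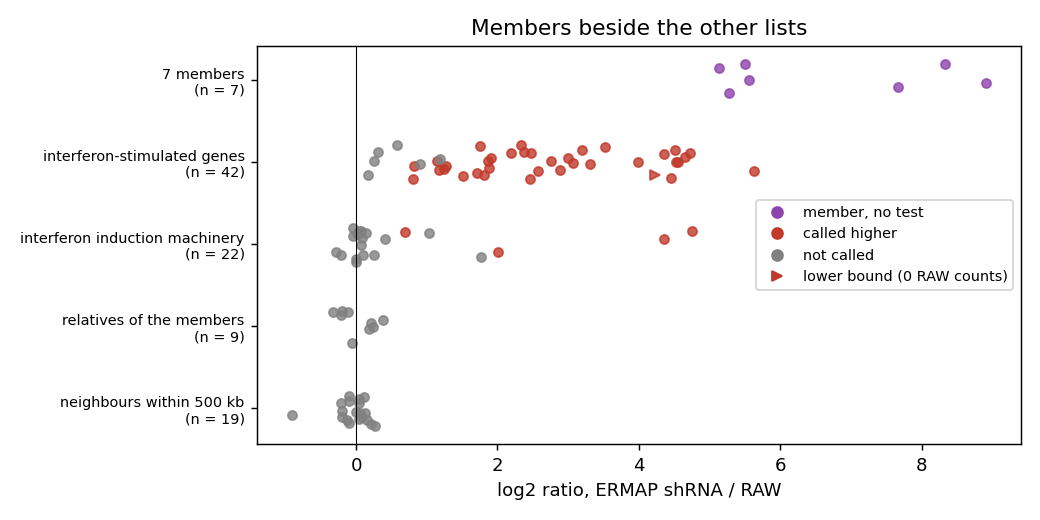
Log2 ratio of ERMAP shRNA over RAW for the 7 members (summed-count ratio, not tested), for the tested genes of 3 lists and for the 19 tested neighbours (edgeR fit), coloured by the edgeR call, with a triangle for Mx1 at its lower bound. The list of 42 interferon-stimulated genes has a median of 2.36, and no gene of the list of relatives or of the neighbours is called.

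Of 36 genes of interferon signalling, 22 were tested, with a median log2 fold change of 0.08. Of the 22, 4 rose and 0 fell (edgeR, adjusted p under 0.05), against 1.01% higher and 0.136% lower among all tested genes. The 4 were Irf7, a regulator that amplifies interferon production, Usp18, which removes ISG15 and damps the receptor and is also counted among the interferon-stimulated genes above, and Irf9 and Stat2 of ISGF3. Irf7 had 128.1 ± 8.51 CPM in ERMAP shRNA and 4.72 ± 2.23 CPM in RAW (SD, n = 3). Usp18 had 74.5 ± 9.44 CPM in ERMAP shRNA and 3.63 ± 0.948 CPM in RAW, Irf9 70.8 ± 3.18 CPM in ERMAP shRNA and 17.5 ± 1.28 CPM in RAW, and Stat2 44.7 ± 1.86 CPM in ERMAP shRNA and 27.7 ± 2.23 CPM in RAW. Of 6 receptor genes 5 were tested, and 0 were called by edgeR, with 0 at an unadjusted p under 0.05. With 1.14% of all tested genes called in either direction, 0 of 5 is near the background and is not a result about the receptors.

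Transcripts of interferons themselves were scarce. Of 13 ligand genes 0 passed the filter. Ifnb1, chosen after its values were seen, had 7 counts over the ERMAP shRNA libraries and 0 over the RAW libraries, Ifnk had 2 and 0, and the other 11 had 0 counts. A count of 0 allows up to 3 counts over a group, so low levels were not detectable at this depth.

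Leaving the 7 aside, Ddx60, Lgals9 and Irf7 had the highest fold changes among protein-coding genes that reached 5 CPM. Ddx60, a helicase linked to RNA sensing, had 98, 112 and 85 counts in the ERMAP shRNA libraries, against 0, 3 and 3 in the RAW libraries. Its log2 fold change was 5.63 (SE 0.46, edgeR adjusted p = 0.000695), inside the range of the members. With so few RAW counts Ddx60 passed the low-count filter only through the ERMAP shRNA libraries, so it could not have been called lower. Lgals9, a galectin, had 56.4 ± 3.44 CPM in ERMAP shRNA and 1.91 ± 0.394 CPM in RAW, a log2 fold change of 4.87 (SE 0.17, edgeR adjusted p = 5.39e-06), just under that of Rtp4. These values stand beside those of the members with no test between them.

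Likeness to each member was measured on log2(CPM + 1), with each gene centred on its own mean over the 6 libraries. The measure is the root mean square difference over the 6 libraries, where 0 means the same profile. Outside the 7, Lgals9 was closest to Rtp4 (0.142), to Apol9b (0.162) and to Ifi44 (0.567), Irf7 was closest to Apol9a (0.428) and to Ifi44l (0.759), and Trim30a, a TRIM protein, to Cmpk2 (0.173). Oas3 was closest to Rsad2 (0.0746), whose difference is compressed because the added 1 exceeds its mean RAW level of 0.124 CPM. The added 1 also exceeds the mean RAW level of Cmpk2 (0.786 CPM), Ifi44l (0.222 CPM), Apol9a (0.198 CPM) and Apol9b (0.0451 CPM). Among the members, Cmpk2 and Apol9b, on different chromosomes, were closest to each other (0.0758), with no gene outside the 7 as close to either. The 7 were chosen as strong risers on this same contrast, so nearness among them was largely set by that choice. Cmpk2 was the member closest to its neighbour Rsad2, at 0.970, with 277 other genes closer. These figures depend on size of change and level as well as on shape.

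Summed counts per library ranged from 13447021 to 16602734. Ermap, the gene named as the target of the shRNA, gave 10, 21 and 14 reads where the label is ERMAP shRNA, against 12, 12 and 3 counts in the RAW libraries (log2 fold change 0.81, 95% interval -0.38 to 2.01, edgeR adjusted p = 0.929), so no fall in its mRNA was seen and all directions here are those of the labels. RAW replicate 1 stood apart, with 3.69% mitochondrial counts against 1.71% to 2.18% in the other 5 libraries. Without it the log2 fold change of Rsad2 was 4.67, that of Ifi44l 8.45 and that of Rtp4 5.07. All 8 macrophage markers were expressed, summing to 7465 to 7614 CPM in ERMAP shRNA libraries and 7323 to 7600 CPM in RAW libraries. Markers of T cells, B cells, neutrophils, epithelial cells, fibroblasts and erythroid cells summed to at most 0.399 CPM per list in any library, and Cd3e, Ms4a1, S100a8, Epcam and Hbb-bs were at 0. Of 5 plasmacytoid dendritic cell markers, Siglech, Ccr9 and Klk1 averaged at most 0.358 CPM in each group, while Bst2 and Tcf4, which other cells express too, carried the sum of 303.6 to 324.4 CPM in ERMAP shRNA and 160.8 to 168.2 CPM in RAW. In bulk RNA, more cells that express a gene and more RNA of it per cell cannot be told apart.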

How the data were processed

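Bulk RNA was sequenced from 6 RAW264.7 libraries made with the NEBNext Ultra kit, per the labels' protocols. The authors deposited unnormalized read counts for every gene. HISAT2 and the build mm10 are named, per the submitters' processing notes. The sources used here do not give the counting program, strand setting, versions or annotation release. The deposited FPKM equal the count over gene length and 1 constant per library, within -0.15% to 1.20% of its summed count. Columns show the group and a number, not which sample, and mapped to groups only. The file coordinates of all 7 members equal those of GENCODE vM21 (GRCm38, the assembly of mm10), whose transcripts gave the shared stretches.

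Counts were tested with edgeR 4.0.16 (limma 3.58.1, R 4.3.3): TMM factors, filterByExpr at a minimum count of 10, robust quasi-likelihood fit, Benjamini-Hochberg adjustment over 12491 genes, called at 0.05. The members, lists and the rule for named genes were chosen with earlier results of these data known. The rule names Ermap, the members, the nearest tested genes, tested relatives, up to 6 called genes of each list by level, the 3 next risers and the gene most like each member. For a gene with 1 to 3 RAW counts the ratio of summed counts replaces the fitted fold, and one with 0 is given as a bound against 3 counts over the group. On simulated counts for this comparison (12325 genes), the test recovered 25.5%, 68.8%, 93.8% and 100% of genes changed 1.5-, 2-, 4- and 32-fold, with 3.5% false calls. The simulation drew each gene independently around a mean pooled over both groups. It held no library that stood apart as RAW replicate 1 does, so these rates may not carry over to the real libraries. Libraries of a group differed by more than sampling noise (chi-square per degree of freedom 67.2 and 53.3 for the pairs with RAW replicate 1, and 3.35 to 7.37 for the others). Alternatives were RLE and upper-quartile factors, DESeq2 1.42.0, limma-voom, no filter, leave-one-out fits, a replicate block, and limma-trend with 1 or 0.1 added to FPKM before log2. Ratios of summed counts without each RAW library were added after seeing the data. Some genes of the lists are counted but not reported here by name.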

Additional observations from a re-analysis of the deposited data

How the results depend on the processing

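All 7 members stayed higher in ERMAP shRNA under each of 14 alternatives. The added 1 of log2(FPKM + 1) shrank them most, to 5.46 for Ifi44l, 4.24 for Ifi44, 4.04 for Rtp4, 2.98 for Cmpk2, 2.87 for Apol9a and 1.07 for Rsad2, since it exceeds their RAW FPKM. The 19 neighbours had 0 calls under every alternative, and also within 250 kb and 1000 kb. Interferon-stimulated genes called higher numbered 31 to 41 over the alternatives and the signalling genes 3 to 6. Of the relatives, 0 to 2 were called higher when a library was left out, and 2 only without RAW replicate 1. Over all genes, 126 were higher and 17 lower. DESeq2 gave 202 higher and 71 lower, and no filter gave 32 lower. Leaving out 1 library gave 73 (without ERMAP shRNA replicate 3) to 342 (without RAW replicate 1) higher and 3 to 280 lower, again for those libraries. Without ERMAP shRNA replicates 1 and 2 in turn there were 79 and 77 higher and 4 and 4 lower, without RAW replicate 3 there were 4 lower, and without RAW replicate 2 there were 11 lower. The cause was not tested. The replicate block gave 81 higher and 3 lower. Deviations from the group means correlated at r = -0.13, -0.28 and 0.18 between same-numbered libraries, against -0.25 to 0.34 between the others. With means of 3 libraries these values depend on one another, so they cannot decide whether the numbers pair libraries. With stretches of 50 and 150 bases, the shared share was 16.5% and 7.1% for Apol9a, 52.3% and 22.5% for Apol9b, and 11.6% and 6.92% for Rtp4, longer stretches being shared less by construction. Depth limits the RAW values: Apol9b, Rsad2, Apol9a and Ifi44l rest on 2, 6, 9 and 10 RAW counts.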
